A study of Homo sapiens with 6 samples.

Results

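Satellites were Myc binding sites that gained a peak in TXNIP-knockout cells within 5 kb of a site that parental cells already held. Peaks of the 4 Myc lists that overlapped by 1 bp or more were merged into 33425 sites. Of these sites, 13485 (40.3% of 33425) were TKO-only, meaning that both TKO libraries and neither parental library had a peak there. The 857 satellites were the TKO-only sites whose edge lay at most 5 kb from the edge of one of 2775 sites called in both parental libraries, here called anchors. They were thus chosen by peak calls and positions in these same 4 libraries, and their number, distance and strength are given without a test. They made up 6.36% of the TKO-only sites. With 1 library left out, they numbered 1644 (11.6%) without parental replicate 1, 1501 without TKO replicate 2, 1420 without TKO replicate 1 and 1259 without parental replicate 2. Among all sites called in both TKO libraries, anchors left out, 6.52% of 15980 lay as near to an anchor. These 15980 sites include the 13485 TKO-only sites, so the 2 shares are not independent. The 11703 TKO-only sites farther than 5 kb from any parental peak, called distant sites, served as the comparison, and 925 TKO-only sites belonged to neither class.

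Myc binding was mapped by ChIP-seq, which sequences the DNA fragments that an antibody pulls down with a protein, in MDA-MB-231, a human triple-negative breast cancer cell line. The 2 parental libraries (parental 231) came from unedited cells, and the 2 TKO libraries came from cells in which TXNIP was knocked out with CRISPR/Cas9. Both were grown in DMEM with fetal bovine serum. The study's methods state that knockout clones were isolated from single cells, so the differences seen here cannot be told apart from differences between a clone and its parental culture. The parental lists held 3720 and 5719 peaks and the TKO lists 27213 and 25887. The estimated depth, in units of 1000000 reads, was 22.2 to 26.4 in the parental and 13.0 to 19.9 in the TKO libraries. The study describes the libraries of a cell line as biological replicates. A site absent from a parental list had no peak past the authors' threshold there and may still have held Myc. The peak lists carry no expression values, so the TXNIP deletion itself could not be checked.

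Myc is a basic helix-loop-helix leucine zipper transcription factor that binds DNA as a dimer with Max. Its preferred sequence is the E-box CACGTG, with CACGCG as a common variant, and it also occupies many active promoters and enhancers that lack either. TXNIP is an arrestin-family protein that limits glucose uptake and whose gene is regulated by MondoA, a relative of Myc that shares its partner network. In basal-like breast cancer cells, distal enhancers are often bound by AP-1, a dimer of Fos and Jun proteins.

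Sequences are shown for 6 of the satellites of highest fold rank with an E-box near the summit of both TKO libraries, together with CCND1, where it was at the summit of TKO replicate 1 alone, and the 2 satellites of highest fold rank, which had none. The summit is the position of highest read pileup in a peak. Of 857 satellites, 29 had an E-box within 50 bp of the summit in both TKO libraries, 35 in TKO replicate 1 alone and 15 in TKO replicate 2 alone. EPS15L1 and ZNF32, of the same rank group, are not shown. Each sequence is the plus strand of GRCh37 (hg19), named by the nearest protein-coding gene, and capitals mark the E-box. It spans 50 bp to either side of the summit of TKO replicate 1, except at WDR43, where only the 30 bp around the E-box are given, which lie next to the summit and do not contain it.
WDR43 (chr2:29118275-29118304): gtgccggctcacCACGTGttctcgtccccg
C15orf39 (chr15:75495131-75495231): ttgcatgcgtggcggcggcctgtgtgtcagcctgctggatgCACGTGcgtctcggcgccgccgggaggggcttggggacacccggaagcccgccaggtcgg
DNAJB12 (chr10:74079827-74079927): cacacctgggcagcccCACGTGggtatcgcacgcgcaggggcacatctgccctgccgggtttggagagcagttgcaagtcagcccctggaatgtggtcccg
ODAD1 (chr19:48825343-48825443): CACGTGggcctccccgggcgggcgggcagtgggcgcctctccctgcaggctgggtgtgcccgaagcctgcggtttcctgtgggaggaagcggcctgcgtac
MOCOS (chr18:33766758-33766858): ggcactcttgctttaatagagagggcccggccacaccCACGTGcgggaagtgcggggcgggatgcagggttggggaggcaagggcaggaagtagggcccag
FAH (chr15:80452199-80452299): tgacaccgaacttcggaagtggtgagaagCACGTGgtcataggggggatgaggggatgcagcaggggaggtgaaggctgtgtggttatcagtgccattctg
CCND1 (chr11:69459169-69459269): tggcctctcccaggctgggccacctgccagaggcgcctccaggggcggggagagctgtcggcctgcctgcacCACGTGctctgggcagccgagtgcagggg
ARHGAP22 (chr10:49812729-49812829): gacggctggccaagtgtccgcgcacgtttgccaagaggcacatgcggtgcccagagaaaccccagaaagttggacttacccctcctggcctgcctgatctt
TXNL4A (chr18:77793564-77793664): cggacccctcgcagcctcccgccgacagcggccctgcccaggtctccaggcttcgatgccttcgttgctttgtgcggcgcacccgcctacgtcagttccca

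The satellites crowded close to their anchor. The gap ran from 4 to 4991 bp with a median of 863 bp and quartiles of 238 and 2567 bp. Of 857 satellites, 95 (11.1%) lay less than 100 bp from the anchor, 327 (38.2%) less than 500 bp and 451 (52.6%) less than 1 kb. The next 1 kb steps held 135, 100, 84 and 87 satellites, and the 1 kb just past the 5 kb limit held 91 TKO-only sites. A further 366 TKO-only sites lay at 6 to 10 kb and 687 at 10 to 20 kb, so the count per kb changed little across the 5 kb limit and was lower farther out. As a side by side value, 20.7% of the distant sites had another TKO-only site within 1 kb, as did 21.6% of the satellites. Of the distant sites with such a neighbour within 5 kb, 66.3% had it within 1 kb. The distance was part of the rule, so these values are a description.

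**Figure D1:**
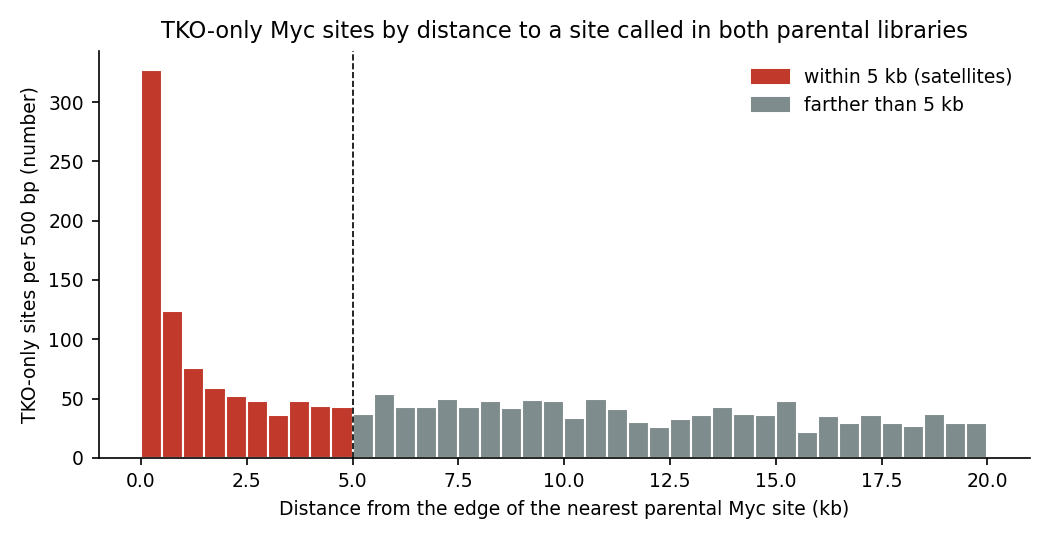
Number of TKO-only Myc sites in steps of 500 bp (y axis) by distance from the edge of the nearest site called in both parental libraries, in kb (x axis). Red bars are the satellites and grey bars the TKO-only sites farther away; the first bar holds 327 sites and the dashed line marks the 5 kb limit.

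The 3 nearest satellites lay at TGFB2 (4 bp), ALDOA (11 bp) and ZNF76 (11 bp). TGFB2 encodes a transforming growth factor beta ligand and ALDOA the glycolytic enzyme aldolase. The TGFB2 satellite had a fold enrichment of 8.04 and 5.53 in TKO replicates 1 and 2, where fold is the summit read pileup plus 1 over the local background plus 1. The ALDOA satellite was weak at 3.91 and 3.19. The edge of an anchor included its TKO peaks, so these satellites were calls apart from the anchor peak of either cell line. Just inside the limit were CHGA (4991 bp, fold 8.73 and 8.64), GADD45B (4940 bp, fold 4.45 and 4.40) and DOK1 (4936 bp, fold 8.69 and 8.83). Just outside it were BCL9L (5006 bp, fold 5.11 and 5.63), ANXA2 (5049 bp, fold 4.97 and 4.40) and RPS15 (5053 bp, fold 5.10 and 7.36).

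The satellites were sites of ordinary strength for a TKO list and far weaker than the anchors. The median fold of the 857 satellites was 5.25 in TKO replicate 1 and 5.60 in TKO replicate 2, against 5.48 and 5.77 at the distant sites and 10.8 and 10.7 at the anchors. In terms of summit reads, the satellite medians were 27 and 21, the distant medians 26 and 21 and the anchor medians 62 and 46. Ranked by fold within its own list, the median satellite stood at the 47.3 and 49.2 percentile. Only 29 satellites (3.38%) in TKO replicate 1 and 36 (4.20%) in TKO replicate 2 stood above percentile 90, as did 4.94% and 5.10% of the distant sites. A fold above the median of the sites shared by all 4 libraries was found at 18 and 24 of the 857 satellites. The median peak width was 358 and 369 bp at satellites, 354 and 366 bp at distant sites and 695 and 676 bp at anchors. Strength was part of what made a peak callable, so no test was made.

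The satellites showed rank correlations between the TKO libraries close to those of the distant sites. Across the 857 sites, the fold ranks of the 2 TKO lists had a Spearman correlation of 0.567, and the log2 folds a Pearson r of 0.601. The distant sites had 0.576 and 0.609. These are descriptions across sites, which share their 2 libraries. The 2 summits of a satellite lay a median of 60 bp apart, and 598 satellites (69.8%) had them within 100 bp. At distant sites the median was 53 bp, and 72.3% had them within 100 bp.

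Summit height was also set beside that of the parental lists. The median satellite had 1.35 and 1.61 summit reads per 1000000 library reads in the TKO libraries. The median peak of the parental lists had 1.25 and 1.22 and the weakest 0.492 and 0.451. The part of depth and of the call threshold in the absence of parental peaks was not tested. The lists were normalised separately, and the depth behind each value is an estimate.

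At single sites, the strongest satellites lay at genes of varied function. The satellite of highest mean rank lay in an intron of ARHGAP22, a GTPase-activating protein. It had 77 and 51 summit reads over a local background of 4.03 and 3.16, which gave folds of 15.5 and 12.5. The anchor 1161 bp away reached only 6.98 and 5.87 in the same libraries. The next was in TXNL4A, a spliceosome component, with folds of 14.7 and 12.5 from 34 and 24 reads. Its anchor, 681 bp away and nearest to RBFA, was stronger at 18.7 and 17.0. TGIF1, a homeobox repressor of transforming growth factor beta signalling, followed with folds of 15.4 and 11.8, both above those of its anchor at 7.24 and 11.5. The parental lists hold no peak at these sites, so no parental fold can be given.

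The other satellites of the 12 highest followed. CCND1, a G1 cyclin, had a satellite 2428 bp from its anchor and 3245 bp downstream of the start site, with folds of 13.0 and 10.2. The E-box there lay within 50 bp of the summit of TKO replicate 1 but not of TKO replicate 2. BCOR, a corepressor, had folds of 10.2 and 17.0, and MUC1, a membrane mucin, had 41 and 37 summit reads. The WDR43 satellite, with an E-box at both summits, had folds of 12.7 and 12.04 at 127 bp from a promoter anchor. WDR43 acts in nucleolar ribosome biogenesis. The anchor there had folds of 9.91 and 6.84 in the parental libraries and 26.9 and 29.2 in TKO, far above its satellite. SERF2, PPP1R37, MYMK, ATAD3B and SBF2 made up the rest, with folds between 9.42 and 14.1. The strongest distant sites reached more: EFNA5 had 20.1 and 18.7, KANSL2 17.7 and 16.1 and FOXL3 17.8 and 15.8.

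Most satellites were weaker than the anchor beside them. In TKO replicate 1 the satellite had the higher fold in 97 of 856 pairs (11.3%), and in TKO replicate 2 in 105 of 840 (12.5%). In 50 of 840 pairs (5.95%) it was higher in both. The median ratio of satellite fold to anchor fold was 0.514 and 0.565. Beside ARHGAP22, satellites above their anchor in both libraries included SERF2 (12.03 and 12.7 against 6.72 and 5.15), TFAP2A (10.6 and 8.04 against 6.04 and 4.41) and IRF2 (10.6 and 9.56 against 6.36 and 3.84). TFAP2A and IRF2 both encode transcription factors.

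**Figure D2:**
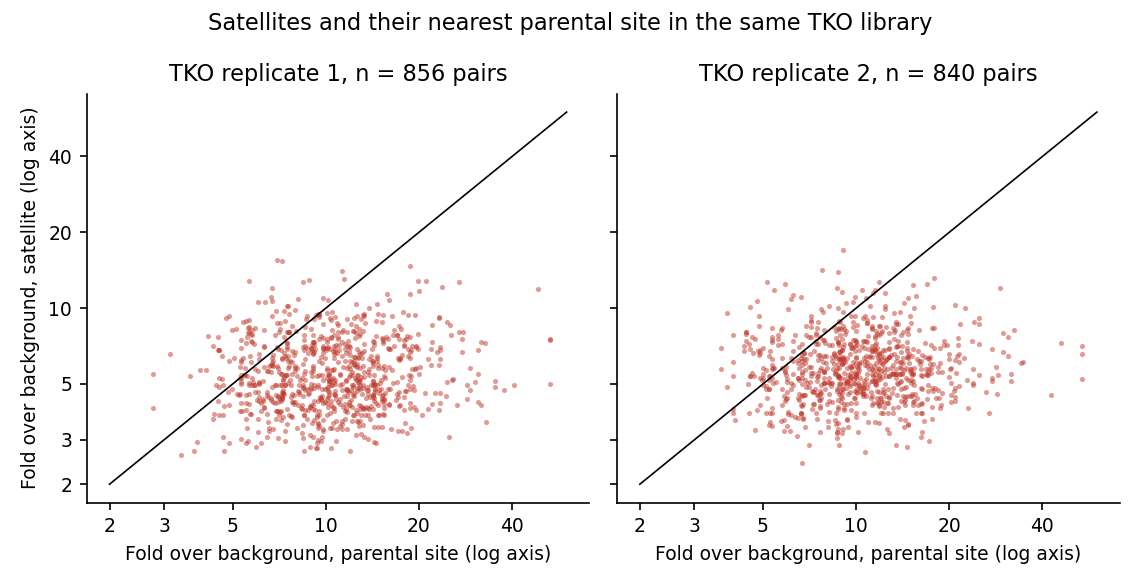
Fold over local background of each satellite (y axis, log scale) against that of its nearest anchor (x axis, log scale) in the same TKO library, 1 point per satellite. The line marks equal fold; 97 of 856 points in TKO replicate 1 and 105 of 840 in TKO replicate 2 lie above it.

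The satellites and their anchors were mostly assigned to 1 gene. For 761 of 857 pairs (88.8%, 95% exact interval 86.5 to 90.8), the nearest protein-coding start site of both belonged to the same gene. The rule placed each satellite within 5 kb of its anchor, which favours a shared gene, so this share is a description. Among the 349 satellites of promoter anchors with start sites on 1 strand only, 213 (61.0%, interval 55.7 to 66.2) lay downstream of the anchor in the direction of transcription, at a median of 1060 bp, and 136 lay upstream, at 1359 bp. The 63 satellites of anchors with start sites on both strands were left out of this count. By a different measure, the side of the nearest start site, sites 1 to 5 kb from a start site were compared. Of these, 63.5% and 63.7% of the satellites and 56.0% and 56.5% of the distant sites lay downstream in TKO replicates 1 and 2. The exact intervals in TKO replicate 1 overlapped (55.7 to 70.8% at satellites and 53.0 to 59.0% at distant sites). Within 1 kb of a start site, 56.6% and 57.2% of satellites and 49.2% and 48.9% of distant sites lay downstream. The intervals there in TKO replicate 1 were 51.4 to 61.6% and 47.9 to 50.5%. At 5 to 50 kb the shares were 61.3% and 60.9% against 55.1% in each library. Beyond 50 kb the order turned, at 52.3% in each library against 62.1% and 62.0%. None of these shares was tested.

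In the comparison with distant sites, the satellites were less often at promoters in the data as called, but the difference did not pass the test. A promoter was a summit within 1 kb of the start site of a protein-coding gene. In TKO replicate 1, 380 of 857 satellites (44.3%) and 5745 of 11703 distant sites (49.1%) were promoter sites, against 49.2% of all 18611 sites called in both TKO libraries. The difference was -4.75 points (95% interval -8.17 to -1.28, two-sided Fisher's exact test, p = 0.0079, adjusted p = 0.0779 over 16 tests). In TKO replicate 2 the shares were 44.5% and 49.1%, with 49.3% over all 18611 sites, a difference of -4.61 points (interval -8.02 to -1.14, exact p = 0.00973, adjusted p = 0.0779). Anchors were at promoters in 56.5% and 58.6%. The direction depended on the settings. It turned with a distance limit of 2 kb (2.49 points) and with a promoter window of 3 kb (3.001 points). With the rule applied without TKO replicate 2, the satellites had the higher promoter share, by 4.45 points, and without TKO replicate 1 by 1.74 points. Without parental replicate 1 the difference was -8.54 points, and without parental replicate 2 it was -2.59 points. The rule also used position near sites that are themselves rich in promoters, so the share is not fully independent of it.

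Split at a gap of 1 kb, the satellites nearer to the anchor were more often promoter sites than those farther out. Of the 451 satellites less than 1 kb from the anchor, 57.0% and 56.8% were promoter sites in TKO replicates 1 and 2, and of the 406 farther satellites 30.3% and 30.8%. The exact intervals in TKO replicate 1 were 52.3 to 61.6% and 25.9 to 35.0%. The anchors are themselves rich in promoters, so a site close to one is often near a start site, and this split is a description. The 1 to 5 kb zone around start sites held 19.5% and 19.6% of satellites and 9.42% and 9.43% of distant sites. Beyond 50 kb from a start site lay 10.3% of satellites in each library and 15.3% of distant sites. Introns held 45.4% and 45.3% of satellite summits against 36.2% and 35.7% of distant ones, and intergenic positions 26.4% and 26.7% against 31.1% in each library. These shares were given without a test because the gap to the anchor was part of the rule.

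**Figure D3:**
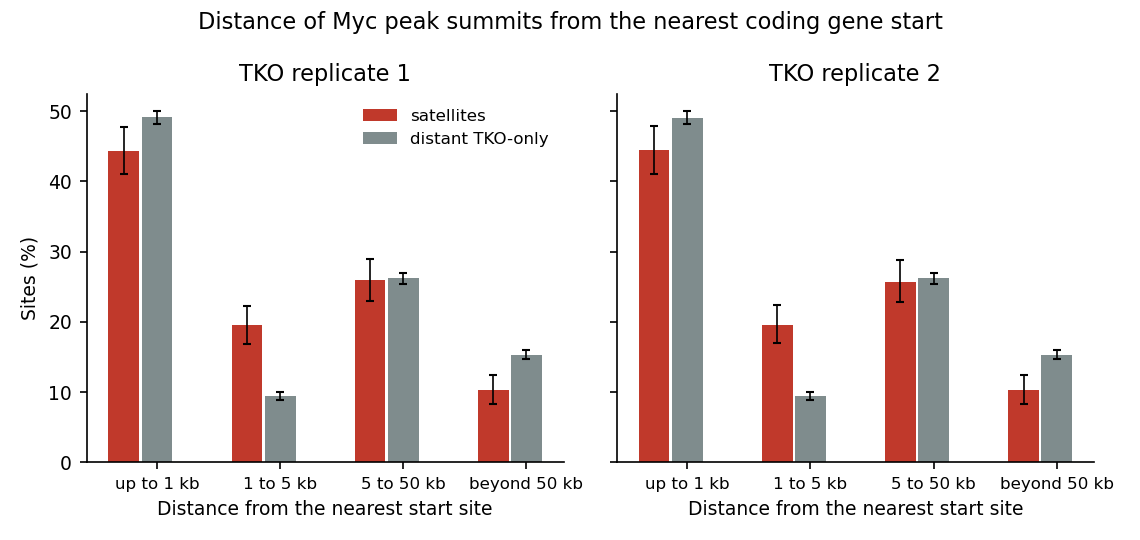
Share of sites in % (y axis) by distance of the summit from the nearest protein-coding start site (x axis) for the 857 satellites (red) and the 11703 distant TKO-only sites (grey) in each TKO library. Bars are shares and lines the 95% exact binomial intervals; the 1 to 5 kb zone holds 19.5% and 19.6% of satellites and 9.42% and 9.43% of distant sites.

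In sequence, the satellites did not differ detectably from distant sites, and both held the E-box far less often than anchors. An E-box lay within 50 bp of the summit at 64 of 857 satellites (7.47%) in TKO replicate 1 and at 44 (5.13%) in TKO replicate 2. The distant sites held it at 7.37% and 6.46%, all sites called in both TKO libraries at 10.4% and 9.24%, and anchors at 23.6% and 22.1%. The differences between satellites and distant sites were 0.09 points (interval -1.56 to 2.103, exact test, adjusted p = 0.892) and -1.33 points (interval -2.69 to 0.417, adjusted p = 0.469). In windows of the same length 1 kb to either side of the summit the share was 2.28% and 2.33% at satellites and 1.39% and 1.46% at distant sites. With 451 of 857 satellites less than 1 kb from their anchor, such a window could fall on the anchor, and its part in these shares was not tested. Beside anchors with an E-box, 14 of 189 satellites (7.41%) had one in TKO replicate 1, and beside anchors without it 50 of 667 (7.50%). In TKO replicate 2 these were 10 of 168 (5.95%) and 34 of 672 (5.06%).

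The other sequences also gave no difference past the test. CACGCG lay at 6.65% and 6.42% of satellites and at 6.50% and 6.08% of distant sites, against 7.29% and 7.18% of all sites called in both TKO libraries. The shares over all those sites were 7.99% and 7.28% for AP-1, 1.55% and 1.69% for ETS, 17% and 17.9% for the GC box, 7.33% and 7.08% for TEAD and 0.188% and 0.161% for NRF1. The AP-1 sequence TGACTCA, or TGAGTCA, lay at 7.001% and 6.65% of satellites and at 7.72% and 6.97% of distant sites (differences of -0.72 and -0.32 points, exact test, adjusted p = 0.818 and 0.892). It was at 4.88% and 4.66% of the satellites less than 1 kb from the anchor and at 9.36% and 8.87% of those farther out, with intervals that overlapped. The ETS sequence CCGGAAGT, bound by a family of factors common at promoters, was found at 6 (0.7001%) and 7 (0.817%) satellites and at 1.59% and 1.67% of distant sites (exact p = 0.0419 and 0.0659, adjusted p = 0.223 and 0.264). The GC box GGGCGG lay at 17.97% and 19.8% of satellites and 17.1% and 18.1% of distant sites, and the TEAD sequence CATTCC at 7.12% and 7.70% against 7.03% and 6.98%. The NRF1 sequence was found at 2 and 0 of 857 satellites, too few to compare. Both strands were searched. Without TKO replicate 2, only TKO replicate 1 could be compared. The differences there were -1.96 points for AP-1, -0.67 points for ETS and 2.24 points for the GC box. Without parental replicate 1, ETS passed the test in both TKO libraries (-1.10 points).

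**Figure D4:**
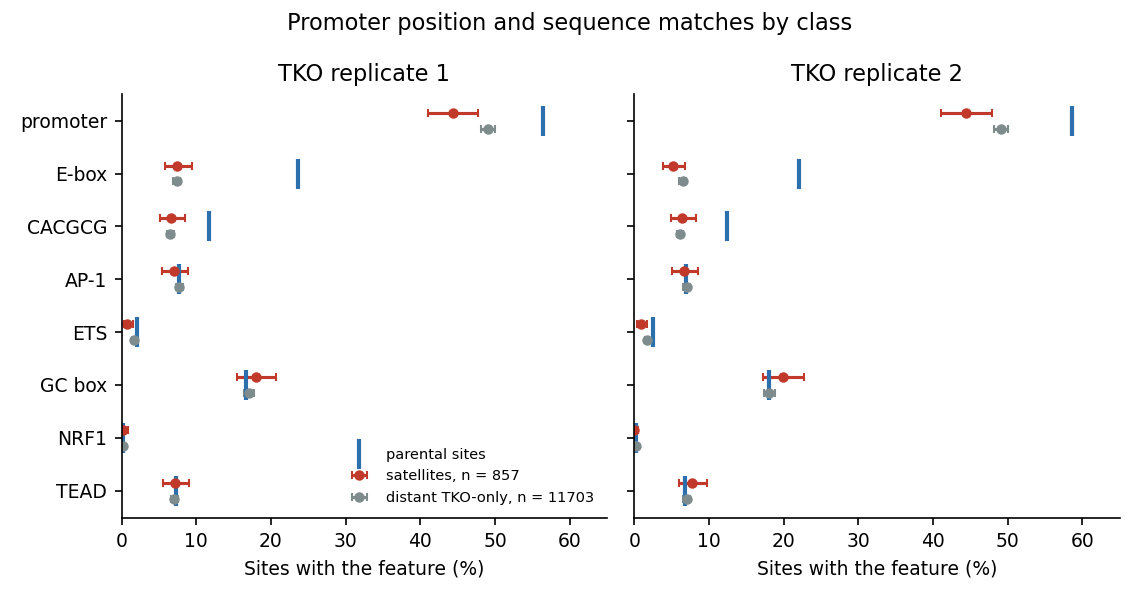
Share of sites in % (x axis) with each feature (y axis) in the 2 TKO libraries, for satellites (red) and distant TKO-only sites (grey) with 95% exact binomial intervals, and for anchors (blue ticks, labelled parental sites). In TKO replicate 1 the promoter share was 44.3% at satellites, 49.1% at distant sites and 56.5% at anchors, and the E-box share 7.47%, 7.37% and 23.6%.

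Base composition was given without a test. Within 100 bp of the summit, GC content was 60.6% ± 6.81 (SD, n = 857) at satellites and 61.0% ± 7.06 (n = 11703) at distant sites in TKO replicate 1, and 61.1% ± 6.59 and 61.4% ± 6.85 in TKO replicate 2. The differences of the means were -0.366 and -0.263 points, and their sign depended on the settings. The observed over expected CpG ratio averaged 0.545 ± 0.291 (SD) and 0.546 ± 0.288 at satellites and 0.585 ± 0.297 and 0.583 ± 0.297 at distant sites, lower at satellites in both libraries.

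Satellites were spread over many anchors. Of 2775 anchors, 665 (24.0%, interval 22.4 to 25.6) had at least 1 satellite: 513 had 1, 121 had 2, 24 had 3, 6 had 4 and 1 had 6. Anchors with a satellite were less often promoters than the 2110 without one, at 49.2% against 58.0% in parental replicate 1 and 48.9% against 58.0% in parental replicate 2. The differences of -8.79 and -9.09 points passed the test (two-sided Fisher's exact test, adjusted p = 0.00016 in each library over 4 tests). They did not without parental replicate 1 (-0.01 points), without TKO replicate 2 (-2.60 points) or with a limit of 2 kb (-1.38 points). Read the other way, 21.1% of promoter anchors and 27.6% of distal anchors had a satellite. The E-box was at 25.6% and 23.0% of anchors with a satellite and at 24.6% and 24.0% of those without (exact test, adjusted p = 0.643 in each library, differences of 0.919 and -1.02 points, intervals -2.77 to 4.81 and -4.59 to 2.77). Of the anchors with a satellite, 648 were called in all 4 libraries.

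The anchors with a satellite had slightly lower medians than those without in all 4 libraries, which were not tested because the rule used the peak calls. The median fold was 5.48 and 5.70 in the parental libraries with a satellite and 5.76 and 5.92 without. In TKO it was 10.6 and 10.3 with and 10.9 and 10.8 without. Summit reads were also scaled to the estimated depth of each library. At anchors with a satellite, the median TKO over parental ratio of these scaled reads ran from 2.11 to 2.64 over the library pairs. At anchors without one it ran from 2.17 to 2.62. The lists were normalised separately, and these ratios depend on the depth estimates.

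The anchor with most satellites lay at JUNB, which encodes an AP-1 subunit. The anchor was 158 bp from the start site, with folds of 4.91 and 8.13 in parental and 5.63 and 7.89 in TKO cells. Its 6 satellites stretched from 2113 bp on one side to 4501 bp on the other, and 2 of them lay in the coding exon. The strongest, 2167 bp from the anchor, had folds of 12.8 and 8.16 from 46 and 23 reads, above the anchor in both TKO libraries. Anchors at EDN2, PTCH1, MRGBP and EPHA2 had 4 satellites each. EDN2 encodes an endothelin, PTCH1 the Hedgehog receptor, MRGBP a subunit of a histone acetyltransferase complex and EPHA2 an ephrin receptor tyrosine kinase. The EDN2 satellites had folds of 4.45 to 8.003 on either side of an anchor at 14.2 and 12.8. At EPHA2 all 4 satellites lay in introns with folds of 3.76 to 7.79, and the anchor had 4.51 and 4.002.

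**Figure D5:**
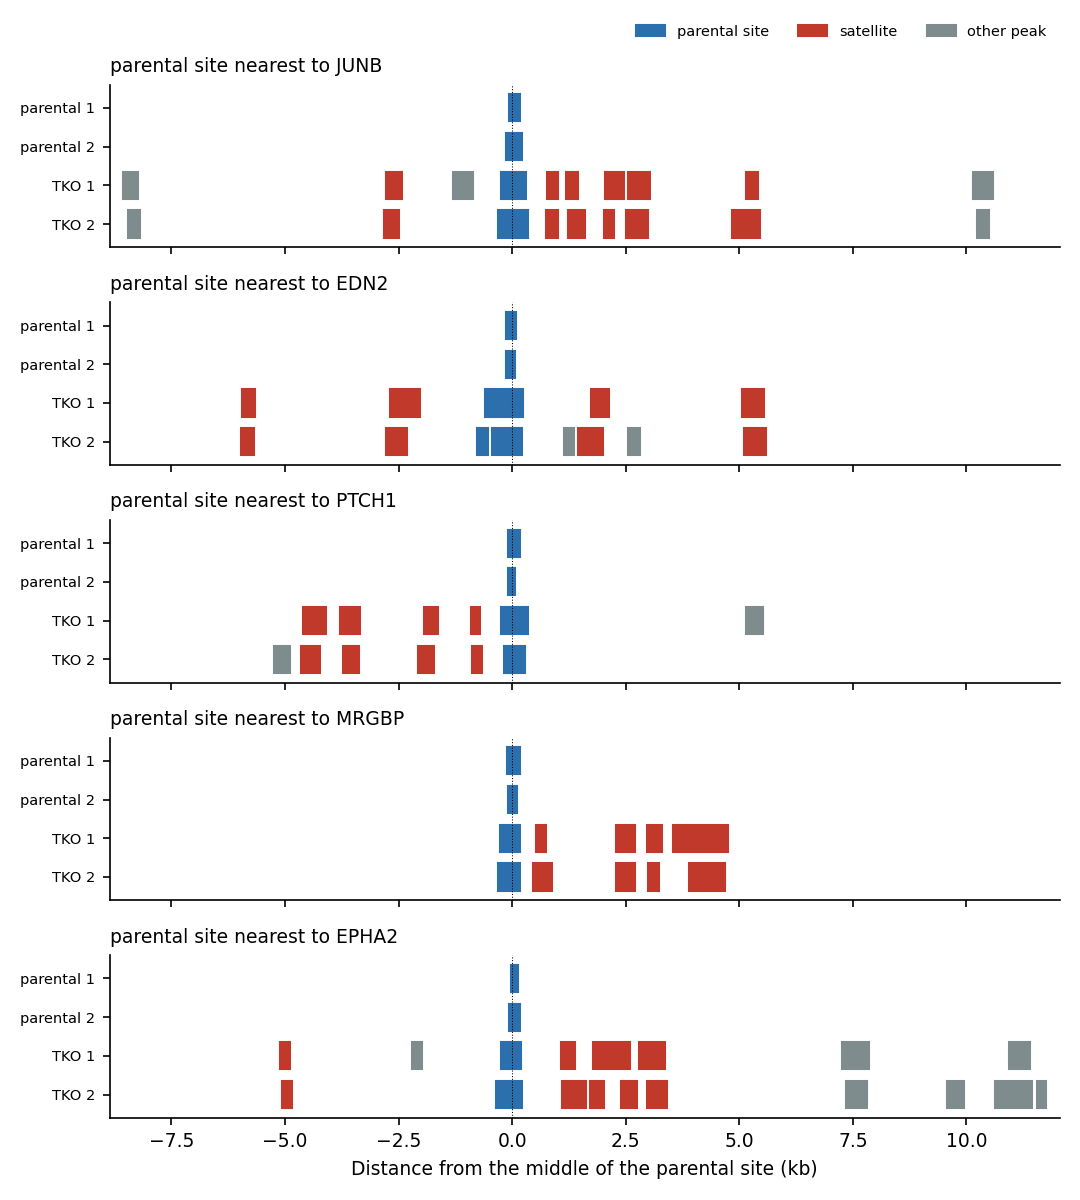
Peaks (boxes, to scale) in the 2 parental and 2 TKO libraries (rows) around the 5 anchors with most satellites, by distance in kb from the middle of the anchor (x axis). Blue boxes are the anchor (labelled parental site), red boxes its satellites and grey boxes other peaks; the parental rows hold the anchor alone, and JUNB has 6 satellites.

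By gene group, satellites were counted within 5 kb of the start sites of a gene, which was not always the nearest gene. The satellites given here for RPL23A, RRP9 and IMP4 lay nearest to TLCD1, PARP3 and CCDC115. Those given for EIF2B4 and EEF1AKMT3 lay nearest to SNX17 and CYP27B1. Over all 19798 protein-coding genes, 563 had a satellite, 2156 had an anchor and 537 had both, which is 24.9% of the genes with an anchor. The cytosolic ribosomal protein genes, long-known Myc targets, had an anchor at 76 of 88 genes and a satellite at 14, which is 18.4% of those with an anchor. The highest by fold rank were RPL26 (8.84 and 6.60), RPL23A (6.85 and 5.75) and RPL41 (5.73 and 6.54). Of 38 nucleolar ribosome biogenesis genes, 32 had an anchor and 5 a satellite: WDR43, NCL (7.33 and 7.15), RRP9, IMP4 and NOP14. NCL encodes nucleolin. Of 78 mitochondrial ribosomal protein genes, 24 had an anchor and 3 a satellite. Of 69 translation factor genes, 30 had an anchor and 2 a satellite, EIF2B4 and EEF1AKMT3, of which the latter is a methyltransferase that the name pattern also took in.

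Of the smaller groups, most had only a few genes with an anchor. Of 23 glucose uptake and glycolysis genes, 7 had an anchor and 4 of these a satellite: GAPDH (7.35 and 7.63), ENO1 (4.63 and 6.12), LDHA (3.20 and 4.14) and ALDOA. In the network of Myc and Mondo partners, 3 of the 5 genes with an anchor had a satellite. These were MNT (3 satellites, the highest at 11.3 and 10.3), which encodes a Max-binding repressor, MGA (14.1 and 8.36), which encodes another Max partner, and MAX itself (4.06 and 3.48). Both AP-1 genes with an anchor, JUNB and FOSL2 (5.99 and 8.36), had a satellite. With 2 to 7 anchor genes per group, these shares carry little weight. No satellite was found near RPL10A, SLC18B1, NUP43, G0S2 or TXNIP by the same measure. Of all 19798 protein-coding genes only 2.84% had one, so their absence at these few genes carries little weight.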

How the data were processed

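The authors aligned single reads to hg19 with Novoalign (version 3.08.02) and called peaks with MACS2 (version 2.1.1.20160309) in each Myc library on its own against input chromatin. The 2 input samples were not analysed here. Each deposited list gives, per peak, position, summit, fold enrichment (a ratio), −log10 p-value, −log10 q-value and a score made from the q-value. Per the deposited lists, the lowest −log10 q-value was 2.03 to 2.07. How duplicate reads were treated is not given in the sources used here.

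Groups and replicate numbers came from the sample titles. After 11 mitochondrial peaks were left out, peaks were merged and classed in Python (3.11.15), and sites were named by rank rules stated in the text. Chromosome 8 sites were counted but not named, and 1 gene list is not reported here. Summit reads and local background were solved from the authors' fold and p-value. The solved read number was whole for 100% of peaks (tolerance 0.002 in −log10 p), against 10.6 to 13.2% at a wrong scale. Depth was estimated from the genome background with a genome size of 2.7e+09 bases and an extension length equal to the narrowest peak. Intervals cover counting error only. Sequence came from GRCh37 and start sites from GENCODE (55764 starts of 19798 genes). No peak ended beyond a GRCh37 chromosome.

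Satellites and distant sites were compared within each TKO library, and anchors within each parental library, by two-sided Fisher's exact tests (scipy 1.17.1) with Benjamini-Hochberg adjustment. A difference passed when the adjusted p was under 0.05 in both libraries. Sites are not replicates of a condition, so these p-values describe the libraries. Intervals of shares are Clopper-Pearson and those of differences Newcombe, at 95%. The scripts were tested on simulated data. Members, gene lists and rules were chosen with earlier results of these data known.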

Additional observations from a re-analysis of the deposited data

How the results depend on the processing

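No paired analysis was possible because the comparisons were between classes of sites within a library, not between groups that share replicate numbers. In each case where a value changed, the cause was not tested. The satellite share of TKO-only sites (6.36%) was 4.35% at 2 kb, 9.74% at 10 kb (1314 satellites), 5.04% for peaks with a −log10 q-value of at least 5, 3.93% for satellites at least 500 bp from the anchor (530 satellites) and 4.93% with 1 satellite per anchor. It ranged from 6.87% to 11.6% when 1 library was left out, with 1259 to 1644 satellites. Leaving out parental replicate 1 gave 1644 satellites, TKO replicate 1 1420 and TKO replicate 2 1501.

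The promoter difference between satellites and distant sites (mean -4.68 points) passed the test at 10 kb (-7.12), at a −log10 q-value of at least 5 (-6.64), with sites joined by overlap of at least 0.5 of either length (-4.89, exact test, adjusted p = 0.0488), at 500 bp or more from the anchor (-15.1) and with a promoter window of 500 bp (-11.2). It changed sign at 2 kb (2.49) and with a promoter window of 3 kb (3.001), and ranged from -8.54 to 4.45 when 1 library was left out. The GC difference (-0.315 points) was 0.135 at 2 kb, -0.0732 at 10 kb, -0.222 at a −log10 q-value of at least 5 and -0.809 at 500 bp or more, and -0.634 to 0.383 with 1 library left out. The anchor promoter difference (-8.94) no longer passed at 2 kb (-1.38), and ranged from -9.27 to -0.00996 with 1 library left out. The anchor E-box difference (-0.0508) was 0.389 at a −log10 q-value of at least 5 and 0.102 for anchors called in all 4 libraries.

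Among sequences, no difference that passed in the data as called reversed, since none passed. Signs changed as follows. AP-1 (-0.522) was 1.05 at 500 bp or more and 0.834 at promoter sites, and -1.96 to 0.353 with 1 library left out. The E-box (-0.616) was 0.000263 with 1 satellite per anchor. CACGCG (0.245) was -0.745 at 10 kb, -0.157 at 500 bp or more, -0.124 with 1 satellite per anchor, -0.814 with a motif window of 100 bp and -0.997 farther than 1 kb from a start site, and -0.928 to 0.0292 with 1 library left out. The GC box (1.32) was -0.317 at 500 bp or more and -1.24 with the 100 bp window, and -0.442 to 2.24 with 1 library left out. TEAD (0.403) was -0.528 at 2 kb and -0.154 farther than 1 kb from a start site, and -0.967 to 1.22 with 1 library left out. NRF1 (-0.0585) was 0.0384 at 10 kb and 0.0135 at 500 bp or more, and -0.158 to 0.0586 with 1 library left out. ETS (-0.874) passed with the 100 bp window (-1.73) and without parental replicate 1 (-1.10). Without TKO replicate 2, where only TKO replicate 1 was compared, the ETS difference was -0.67. Matching on peak strength left the promoter difference at -3.91 points, still short of the threshold.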

Other observations

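By chromosome, chromosome 19 held the most satellites, 86 of its 836 TKO-only sites (10.3%), or 47.8 for every 100 of its 180 anchors. Chromosome 1 held 83 (6.09%), chromosome 11 held 76 (9.45%) and chromosome 17 held 68 (7.86%). Chromosome 13 had the smallest share among those with a satellite, 6 of 207 (2.90%). Gene density and copy number differ between the chromosomes of this cell line, and their part in these shares was not tested.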
